A study of Mus musculus with 4 samples.

Results

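The AP-1 family genes encode basic leucine zipper (bZIP) proteins that pair with each other to form the transcription factor AP-1. The genes examined here were 10 in number, chosen by name: the FOS genes Fos, Fosb, Fosl1 and Fosl2, the JUN genes Jun, Junb and Jund, and the ATF, BATF and small MAF genes Atf3, Batf and Maff. A gene counted as having Prdm6 binding when the deposited annotation assigned at least 1 ChIP-Seq peak to its symbol. Peaks were assigned to 3 of the 10 genes, Fosl2 (4 peaks), Jun (3 peaks) and Atf3 (3 peaks), so the family held 10 of the 13977 peaks and 3 of the 5243 named genes with a peak.

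The series was collected to map Prdm6, a PR domain protein with zinc fingers, on the genome of SMCs. The cells were cultured outflow tract SMCs isolated from mouse embryos late in gestation, and all 4 samples, 2 PRDM6 ChIP and 2 Input, came from cells that carried a lentivirus expressing FLAG-tagged PRDM6. The antibody was directed against the FLAG tag, so the peaks are those of an overexpressed, tagged protein. The PRDM6 ChIP samples are described in one place as separate immunoprecipitations of the same sample and in another as independent replicates, and there were no cells without the virus. The Input group entered only through the peak calls, and no Input value can be set beside the values below. The list identifies its replicates by order alone, and below they are first-listed and second-listed. The data record binding and no RNA, and they give no expression level of any AP-1 gene or cell type marker.

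AP-1 forms when a JUN protein pairs with another JUN protein or with a FOS, ATF or BATF partner through the leucine zipper, and the joined basic regions grip a short palindromic site in DNA. Several members, Fos and Jun first among them, are immediate early genes that growth factors, stretch and injury switch on within minutes through MAP kinases and serum response factor. In vascular SMCs the family is known for its part in proliferation, migration and matrix remodelling after injury.

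The sequences that carry the family's peaks are shown first, because the AP-1 site is both the binding site of these proteins and a motif found in many of the Prdm6 peaks. Motifs were searched on both strands as TGACTCA or TGAGTCA (AP-1), TGACGTCA (ATF/CRE, the site of ATF and CREB proteins), GGAATGC or GGAATGT (TEAD) and the CArG box of serum response factor. None of the AP-1, ATF/CRE and TEAD words contains another. Coordinates are those of mm10, and sequence is that of GRCm38.p6, the same assembly. The AP-1 matches in the family's peaks numbered 5, in 4 peaks, and are printed 5′ to 3′ on the strand of the gene with the match in capitals.

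Fosl2, start site peak, chr5:32135844-32135870, plus strand: gccattgtagTGACTCAtctcgggcag
Jun, upstream peak, chr4:95100889-95100935, minus strand: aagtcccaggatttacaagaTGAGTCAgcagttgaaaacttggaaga
Atf3, start site peak, chr1:191182765-191182811, minus strand: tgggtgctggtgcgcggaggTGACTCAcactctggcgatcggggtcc
Atf3, intron peak, 3′ match, chr1:191215948-191215994, minus strand: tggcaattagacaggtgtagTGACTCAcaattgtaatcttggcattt
Atf3, intron peak, 5′ match, chr1:191216285-191216331, minus strand: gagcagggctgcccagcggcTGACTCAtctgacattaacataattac

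The TEAD word, the site of the TEAD factors that work with the coactivators YAP and TAZ, was present in 2 further peaks, an intron peak of Fosl2 and an upstream peak of Atf3. The match at Atf3 is shown the same way, in capitals.

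Atf3, upstream peak, chr1:191186341-191186387, minus strand: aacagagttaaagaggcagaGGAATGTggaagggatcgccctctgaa

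The window around the summit of the strongest peak of the family, 251 bases long, shows the DNA under the highest value. It holds neither an AP-1 nor a TEAD word and so has no capitals.

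Atf3, chr1:191216025-191216275, minus strand: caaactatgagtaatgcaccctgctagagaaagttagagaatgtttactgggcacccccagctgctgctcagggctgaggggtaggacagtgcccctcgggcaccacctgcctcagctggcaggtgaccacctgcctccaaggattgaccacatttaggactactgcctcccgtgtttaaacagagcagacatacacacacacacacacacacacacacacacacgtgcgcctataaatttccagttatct

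The window holds a run of the dinucleotide CA, a point noticed only on reading it. A run of at least 8 copies lay in such a window around 4.01% of all matched summits, against 3.52% and 3.54% of windows 1000 bp to either side, so the repeat was only slightly more frequent at summits. In the family it lay at 2 of the 10 matched summits, those of the strongest Atf3 and the strongest Fosl2 peak.

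The share of the family with a peak was 30.0% (3 of 10 genes, 95% Wilson interval 10.8% to 60.3%). Over all protein-coding genes it was 20% (4389 of 21938), which lies inside the family's interval. Intervals of shares cover counting error only, and no test was made on any share or level, because both immunoprecipitations are merged in 1 list and the genes are not replicates. Each of the 3 genes had at least 3 peaks, as did 32.7% of all genes with a peak.

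Fosl2 encodes Fra-2, a FOS protein without the strong activation domain of Fos, and it had the most peaks of the family. Its 4 peaks lay within 6.75 kb at the 5′ end of the gene (chr5:32135801-32157842, plus strand) and covered 3392 bp. Only 3.03% of genes with a peak had 4 peaks within 10 kb. Strength is given as the −log10 p-value of the peak call against input, for which the deposited value of a matched peak is the smaller of the replicates' values.

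The first Fosl2 peak (chr5:32133170-32133817) ended 1984 bp upstream of the start site and reached 4.33 in the first-listed and 3.73 in the second-listed replicate. The second (chr5:32134918-32136249) covered the start site and 449 bp of the 5′ UTR, with 7.71 and 8.72. The third (chr5:32136730-32137358) began 929 bp downstream, took in 76 bp of the first coding exon and otherwise lay in the first intron, with 6.15 and 3.61. Thus the start site peak was the strongest of these 3 in both replicates, while both neighbours fell among the weaker peaks of the list: 10.0% and 5.26% of all peaks had a lower matched value.

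The fourth Fosl2 peak (chr5:32139139-32139921) lay 3338 bp downstream of the start site and was the strongest of the gene. It was annotated as exonic because 506 bp overlap an exon of a retained-intron transcript, but its summit lay in an intron of the protein-coding transcript. Its values differed more between the replicates than those of any other peak of the family, 19.9 in the first-listed and 9.03 in the second-listed replicate, although the summits were only 31 bp apart. The matched value of 9.03 was above that of 89.5% of all peaks, and the height read back for the first-listed replicate was 28 fragments.

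Start sites here are those of GENCODE, and RefSeq places the start of Fosl2 671 bp further downstream. By the GENCODE model the AP-1 word in the Fosl2 start site peak lay in the 5′ UTR, 44 bp from the matched summit, and was the only AP-1 word within 100 bp of a matched summit in the family. The replicates' own summits were 570 bp apart in this wide peak (1332 bp), and the word was 273 bp from the first-listed and 843 bp from the second-listed summit. The matched summit did not lie between the replicates' summits but beyond both, so the distance of 44 bp is not from a summit seen in either replicate. The 200 bases just upstream of the start site, all within this peak, were 73.0% G and C and held none of the 4 motifs.

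Fosl2, before the start site, chr5:32135601-32135800, plus strand: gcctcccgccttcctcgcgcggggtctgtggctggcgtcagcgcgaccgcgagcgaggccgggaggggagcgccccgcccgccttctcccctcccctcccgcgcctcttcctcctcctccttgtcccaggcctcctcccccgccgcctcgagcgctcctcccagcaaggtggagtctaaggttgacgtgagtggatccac

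Jun encodes c-Jun, the partner that most AP-1 dimers share, from a gene without introns (chr4:95049034-95052222, minus strand). Its peaks were spread over 50.1 kb and had replicate summits from 14 bp to 794 bp apart. The first (chr4:95051336-95051816) lay wholly in the 5′ UTR, from 406 bp downstream of the start site, with 7.17 in the first-listed and 6.61 in the second-listed replicate. The second (chr4:95053537-95054064) lay 1315 bp upstream, with 5.42 and 5.10, which the background model translates into 12 and 11 fragments. These 2 peaks gave the closest values between replicates in the family.

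The third Jun peak (chr4:95100296-95101484) lay 48074 bp upstream of the start site, with 7.17 and 10.9. It is the only peak of the family more than 4 kb from the start site it was assigned to. The annotation calls it exonic because it overlaps 250 bp of an exon of Junos, a long noncoding RNA gene transcribed away from Jun on the opposite strand, and all 3 Jun peaks touch Junos transcripts. Its AP-1 word was 128 bp from the matched summit, and 525 bp and 269 bp from the replicates' summits, which stood 794 bp apart. A further peak 39035 bp from the Jun start site, with 5.42 and 6.61, was assigned to Mysm1.

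Atf3 encodes a stress-induced ATF protein that pairs with JUN proteins and often represses its targets. The gene (chr1:191170296-191218039, minus strand) has 2 annotated start sites, and the peaks fell at both. At the downstream start site, a peak of 1661 bp, wider than 96.1% of all peaks, covered the first exon of the shorter transcript (chr1:191182433-191184093). Its values were 3.21 in the first-listed and 5.84 in the second-listed replicate, and only 2.33% of all peaks had a lower matched value. A second peak (chr1:191185486-191186615) lay 2146 bp upstream of that start site, within an intron of the longer transcript, with 5.42 and 7.42. Both peaks were thus higher in the second-listed replicate. The AP-1 word in the start site peak lay 919 bp from the matched summit, but 169 bp from the first-listed and 59 bp from the second-listed summit. Here too the matched summit lay beyond both replicates' summits.

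The third Atf3 peak (chr1:191215609-191216749) lay 1290 bp downstream of the upstream start site, in the first intron of the longer transcript. It reached 20.8 in the first-listed and 14.3 in the second-listed replicate, with summits 23 bp apart, and its matched value was higher than that of 98.7% of all peaks. It was the only peak of the family with a global IDR of at most 0.05 (0.00912), where IDR, the irreproducible discovery rate, is an estimate of how likely a peak is not to be shared, made by comparing its rank across the replicates. Over all peaks, 3.33% passed that limit. Its 2 AP-1 words lay on either side of the summit, at 158 bp and 179 bp, which places both outside the 100 bp window.

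The promoter of Atf3 given by RefSeq for GRCm38.p6 was overlapped by the start site peak, and that of Fosl2, at the downstream RefSeq start, by the end of its start site peak, as were 2.75% of the 32851 RefSeq promoters of 300 bases (250 before and 50 after the start). It is printed without its untranslated bases. No AP-1, TEAD, ATF/CRE or CArG word was found in it.

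Atf3, before the downstream start site, chr1:191183341-191183583, minus strand: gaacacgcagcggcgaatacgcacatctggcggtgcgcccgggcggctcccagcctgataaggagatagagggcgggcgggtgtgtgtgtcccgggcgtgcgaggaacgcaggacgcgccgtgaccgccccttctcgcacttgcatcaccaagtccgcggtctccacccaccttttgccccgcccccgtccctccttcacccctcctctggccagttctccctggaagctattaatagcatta

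**Figure D1:**
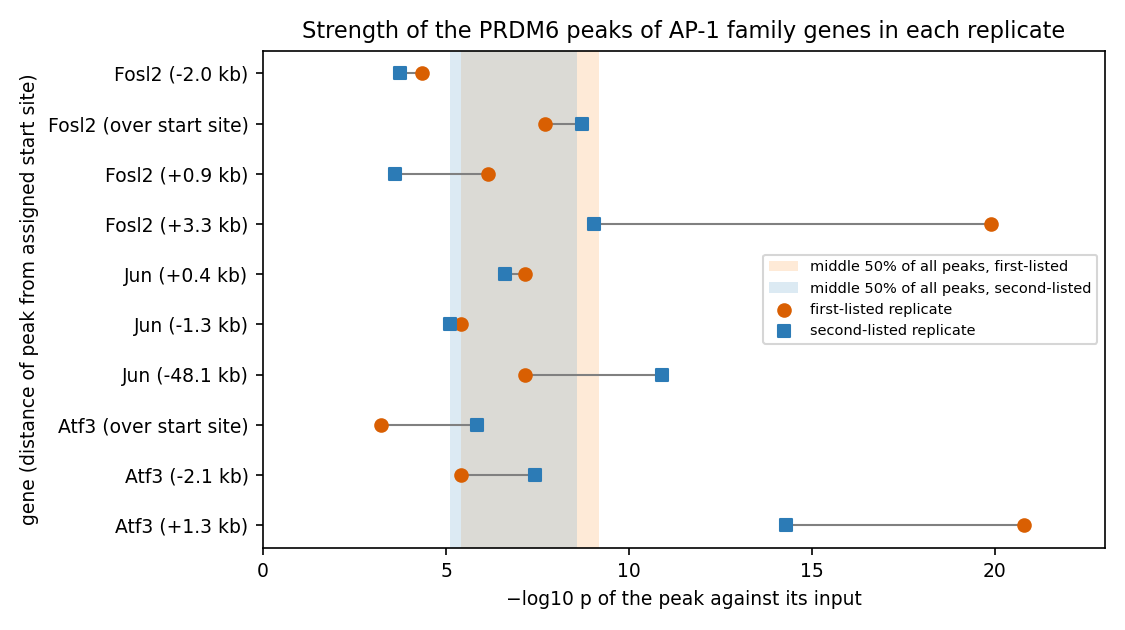
−log10 p-value of each of the 10 peaks of Fosl2, Jun and Atf3 in the first-listed (circles) and second-listed (squares) replicate, with shaded bands from the lower to the upper quartile of all 13977 peaks in each replicate. The Atf3 intron peak (20.8 and 14.3) stands above both bands in both replicates, and the Fosl2 intron peak does so only in the first-listed replicate (19.9). Its second-listed value, 9.03, is just above the second-listed band (upper quartile 8.58) and inside the first-listed band (upper quartile 9.19).

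**Figure D2:**
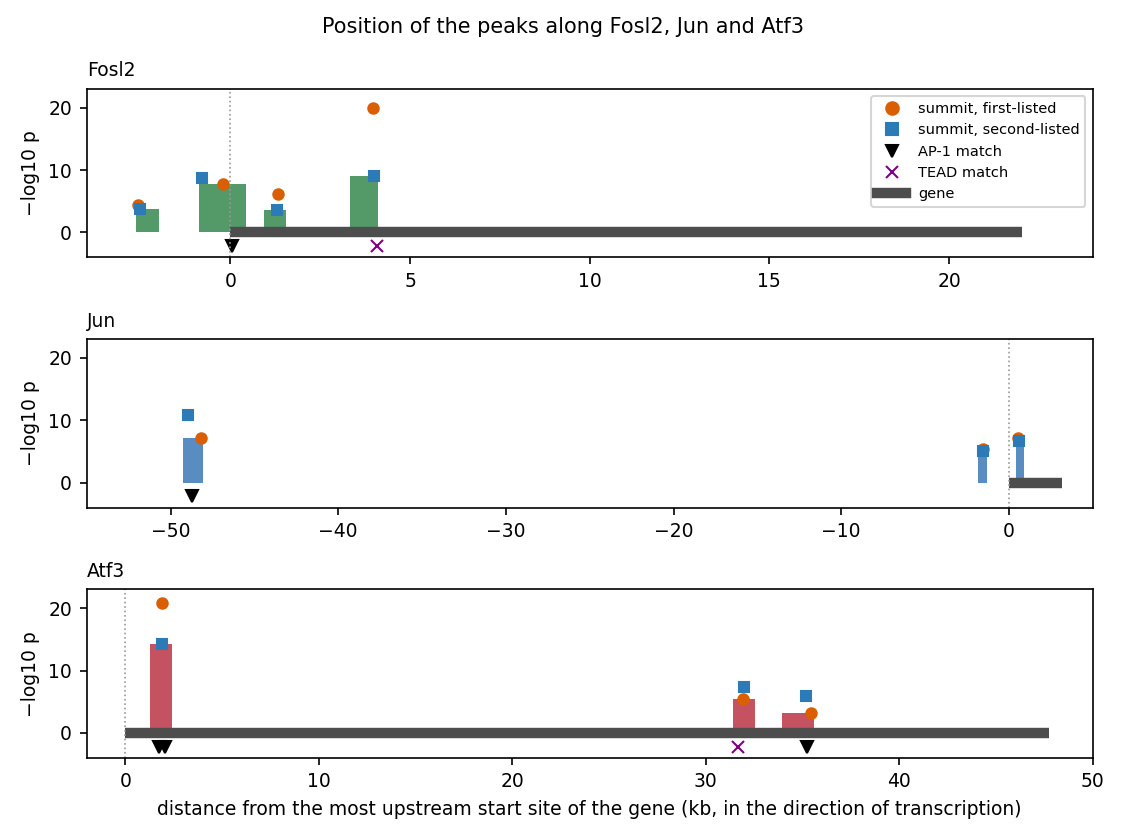
Position of the peaks along Fosl2, Jun and Atf3 in kb from the most upstream start site of each gene, with bar height the matched −log10 p-value, circles and squares the summits and values of the first-listed and second-listed replicate, triangles AP-1 matches and crosses TEAD matches. The Fosl2 peaks crowd within 6.75 kb, a single Jun peak lies 48.1 kb upstream, and Atf3 has its strongest peak at the upstream and its weaker peaks at the downstream start site.

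Set beside the whole list, the peaks of the family were middling in strength. Their matched values ran from 3.21 to 14.3 with a median of 6.01, where all peaks had a median of 5.53 and quartiles of 4.39 and 6.92. The medians in the replicates were 6.66 and 7.01, against 6.92 and 6.61 over all peaks. In the family, 6 peaks were higher in the first-listed and 4 in the second-listed replicate. The lowest score of the list, 48, which corresponds to a global IDR of 0.759, was held by 4 of the 10 peaks (40.0%) and by 41.4% of all peaks.

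By the deposited annotation, most of these peaks lay at promoters. Promoters, within 3 kb of a start site in the deposited annotation, held 8 of the 10 peaks (80.0%, 49.0% to 94.3%) and 21.3% of all peaks. With the summit itself within 1 kb of a start site, the shares were 40% in the family and 12.9% over all peaks. When peaks were given to the nearest protein-coding start site, which added 6 peaks to Fosl2, the family's share by the deposited class was 50%, and that of all peaks is 21.3% whatever gene they are given to. Because both Atf3 and Fosl2 had 3 promoter peaks each, a count reached by 3.95% of genes with a peak, the 8 peaks come from only 3 genes and are not independent. The peaks had a median width of 956.5 bp (481 bp to 1661 bp), against 600 bp for all peaks. Their median G and C content was 52.5%, from 42.0% to 67.3%, above the upper quartile of all peaks (47.3%).

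The share of the family's peaks with an AP-1 word lay within counting error of that of the whole list. It lay within 100 bp of the matched summit in 1 of the 10 peaks (10.0%, 1.79% to 40.4%), that at the Fosl2 start site, in 14.3% of all peaks and in 8.33% of all promoter peaks. Around the second-listed summits it was found in 1 peak as well, but in that at the downstream Atf3 start site, and around the first-listed summits in 0, against 12.3% and 13.3% of all peaks. Within 250 bp of the matched summit it was present in 3 of the 10 peaks (30.0%) and in 30.7% of all peaks. Anywhere in the peak it was found in 4 of 10 (40.0%, 16.8% to 68.7%) and in 34.3% of all peaks, and longer peaks hold more words: among all peaks at least as wide as the family's median the share was 52.8%, and among all promoter peaks it was 22.1%. At the matched summits no TEAD, ATF/CRE or CArG word was found, where all peaks had 12.2%, 0.286% and 1.41%. The TEAD word was present anywhere in 2 of 10 peaks and in 30.3% of all peaks. The matched summit lay at the midpoint of the replicates' summits in 7 of the 10 peaks and in 80.7% of all peaks. It did not in the Fosl2 and downstream Atf3 start site peaks, so their distances to a matched summit are uncertain.

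The 7 genes without an assigned peak were Fos, Fosb, Fosl1, Junb, Jund, Batf and Maff, and the distance to the nearest peak differed widely among them. The depth of the list limits what can be said of these genes. For the replicates in list order the genome-wide background was 2.61 and 2.39 fragments and the median recovered height of a peak 14 and 13 fragments. The lowest −log10 p-value in the list was 3.01 in the first-listed and 3.03 in the second-listed replicate, and binding below the limit of the peak calls in either replicate would not appear in the list.

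Fos, the founding FOS gene and the classic target of serum response factor (chr12:85473890-85477273, plus strand), was 118937 bp from its nearest peak. Batf, whose protein pairs with JUN in lymphocytes (chr12:85686669-85709087, plus strand), lies downstream on the same strand and was 93407 bp from the same peak. This peak (chr12:85592827-85593262) was assigned to Jdp2, the JUN dimerization protein gene that lies between them, with 4.04 and 5.10 in the replicates in list order. No further peak was present in the 213 kb between the start sites of Fos and Batf.

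Fosl1, which encodes Fra-1 (chr19:5447547-5455946, plus strand), had the nearest peak of the genes without one, 13781 bp upstream. That peak was assigned to AI837181, reached 6.42 and 6.61 in the replicates and held an AP-1 word within 100 bp of its summit. Fosb, a close relative of Fos (chr7:19302696-19310051, minus strand), was 450491 bp from its nearest peak, in the 3′ UTR of Pglyrp1. A peak nearer than that was found for 81.0% of all protein-coding genes.

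Junb, a JUN gene that often opposes c-Jun (chr8:84976910-84978718, minus strand), was 189462 bp from a peak in an intron of Nfix. Jund, the most steadily expressed JUN gene (chr8:70698949-70700616, plus strand), lay 1436175 bp from the nearest peak, assigned to Tpm4, and 95.2% of protein-coding genes had a nearer one. No peak was found within 500 kb of Jund. Maff, a small MAF gene whose product lacks an activation domain (chr15:79346621-79359076, plus strand), was 22575 bp from a peak at the promoter of Pla2g6. Of the RefSeq promoters of these genes, 1 of 3 at Maff held the ATF/CRE word, which was present in 1.80% of all distinct promoter sequences, and no peak overlapped it. The share of protein-coding genes with a nearer peak was 13.5% for Fosl1, 17.4% for Maff, 42.3% for Batf, 48.6% for Fos and 61.5% for Junb, so that 4 of the 7 genes were closer to a peak than the median gene.

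**Figure D3:**
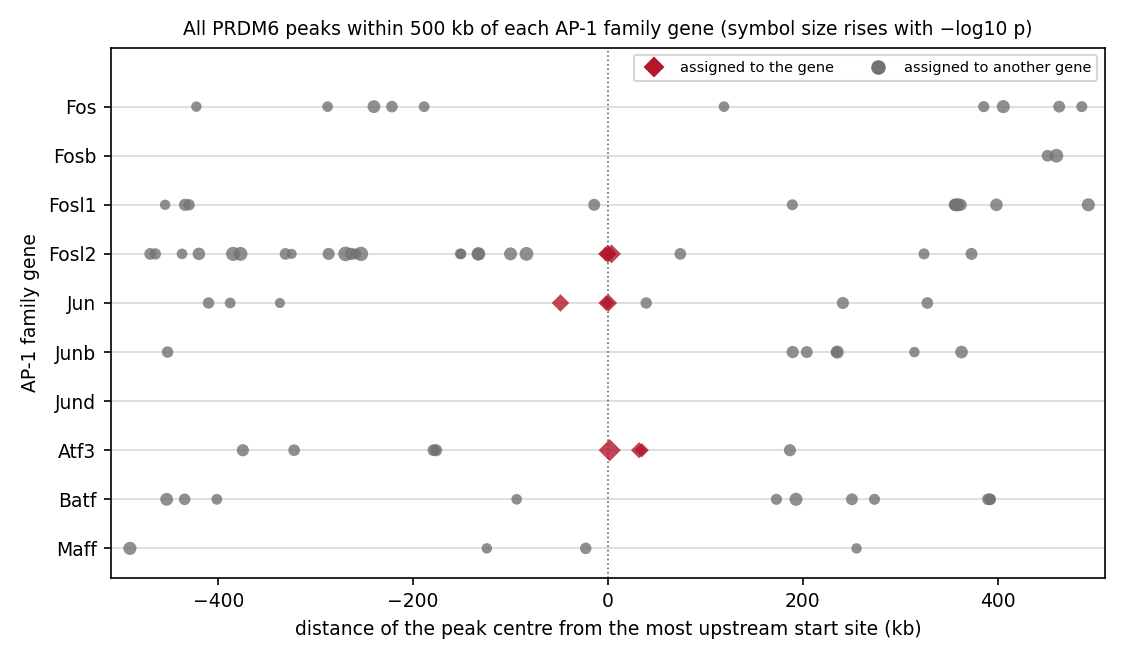
All peaks within 500 kb of the most upstream start site of each AP-1 family gene, in kb and in the direction of transcription, with diamonds for peaks assigned to the gene and circles for peaks assigned to others, larger for a higher −log10 p-value. Fosl2 has 26 peaks in its window, Jund none and Fosb 2 near the far edge.

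The surroundings of the genes differed as much as the genes themselves. Fosl2 had 26 peaks within 500 kb, more than 99.4% of protein-coding genes, of which 17 were assigned to its neighbour Babam2. Jun and Atf3 had 9 each. Among the genes without an assigned peak, Fosl1 and Batf had 11, Fos 10, Junb 7, Maff 4, Fosb 2 and Jund 0, and the median over all protein-coding genes was 4. Hence the lack of an assigned peak did not go with an empty neighbourhood at Fosl1, Batf and Fos, each of which had more peaks around it than Jun or Atf3. The windows of Fos and Batf, whose start sites are 213 kb apart, overlap. Most of their peaks are therefore the same and counted for both, among them 4 assigned to Ttll5.

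The genes with and without an assigned peak also differed in gene density and in median length. Fosb, Fosl1, Junb, Jund and Maff, 5 of the 7 genes without a peak, lie in the most gene-rich class when genes are split into 5 classes by their number of neighbours, with 38 to 52 other protein-coding genes within 500 kb, whereas Fosl2 has 5, Jun 8 and Atf3 15. Batf with 13 and Fos with 16, the other genes without a peak, fall in the same class as Atf3. Over all protein-coding genes, the share with an assigned peak was 42.1% in the class with the fewest neighbours, 27.2%, 15.5% and 9.73% in the next and 5.25% in the richest. A gene with close neighbours is also nearest to a shorter stretch of DNA, and the median number of peaks within 500 kb, which does not depend on the assignment, was 5 in the poorest and 3 in the richest class. By gene length, the share rose from 7.29% in the shortest of 5 classes to 48.5% in the longest. The AP-1 genes with a peak had a median length of 22000 bp, against 7360 bp for those without. Jun, at 3189 bp, nevertheless falls in the shortest class. The part of gene density and of gene length in the split between AP-1 genes with and without a peak was not tested.

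**Figure D4:**
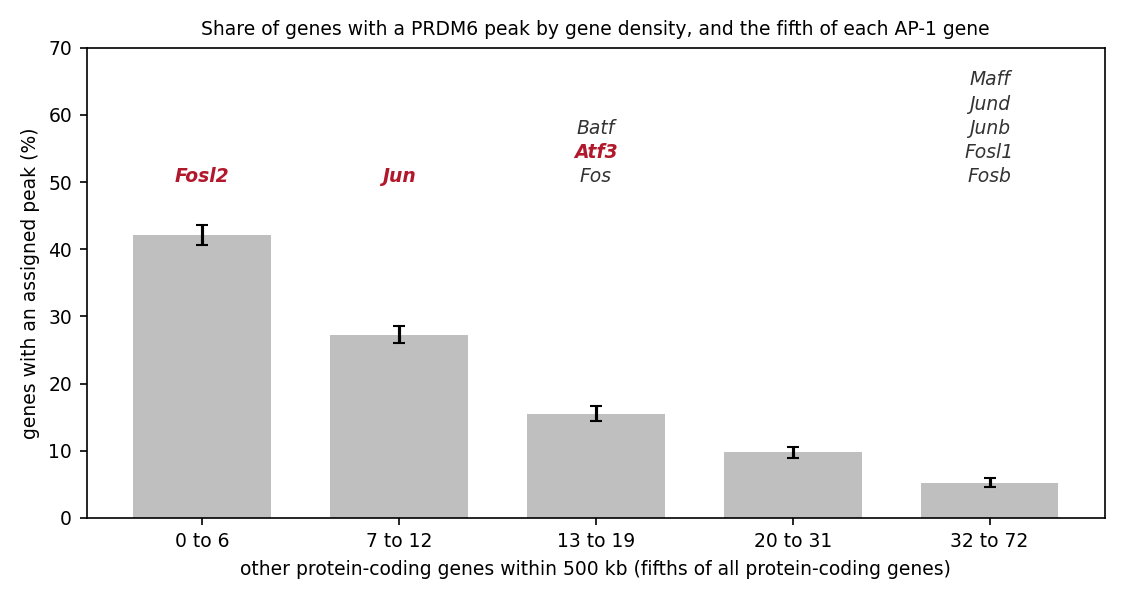
Share of protein-coding genes with an assigned peak in 5 classes by the number of other protein-coding genes within 500 kb (bars, with 95% Wilson intervals), with the AP-1 family genes named above their class, in bold where they had a peak. The share falls from 42.1% to 5.25%, and Fosl2, Jun and Atf3 stand in the classes with the fewest genes, up to the middle one.

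Genes that work with AP-1 were counted in 4 further lists. Among 16 other bZIP partners, such as the large MAF, BACH and NRF genes, 6 had a peak (37.5%, 18.5% to 61.4%), led by Bach2 and Maf with 11 peaks each, then Bach1 with 3 and Nfe2l2 with 2. Of 18 upstream kinases and factors, 7 had a peak (38.9%, 20.3% to 61.4%). In this list Elk3, a partner of serum response factor, had 5 peaks and the JNK and p38 kinase kinase Map2k4 had 3, then Map2k1 and Map3k1 with 1, and Srf had none.

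Of 17 other immediate early genes, 10 had a peak (58.8%, 36.0% to 78.4%), with 14 at Klf4, 12 at Klf6, 7 at Ccn1 and 5 at Myc. Known AP-1 target genes did so in 7 of 12 cases (58.3%, 32.0% to 80.7%), with 6 peaks each at Cd44, Il6 and Spp1 and 4 at Ccl2. The lower bounds of both intervals, and narrowly that of the upstream kinases and factors, lay above the 20% of all protein-coding genes, but the lists were chosen with earlier results of these data known, and the intervals of all 5 lists overlap.

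**Figure D5:**
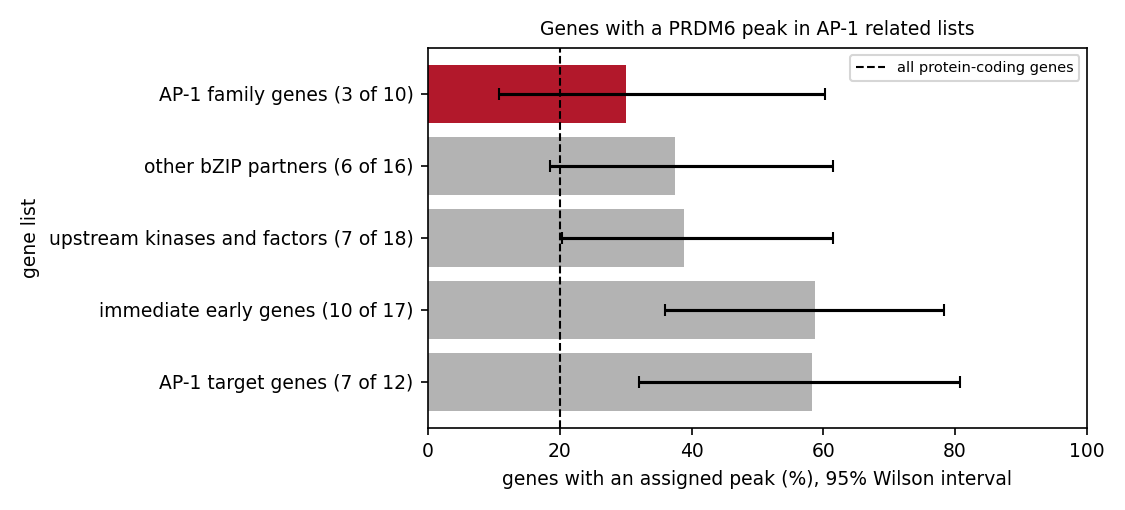
Percent of genes with an assigned peak in the AP-1 family and in 4 related lists, with 95% Wilson intervals and a dashed line at the share of all protein-coding genes (20%). The intervals of the AP-1 family (30.0%) and of the other bZIP partners (37.5%) include the line, those of the immediate early genes (58.8%) and AP-1 target genes (58.3%) lie above it, and that of the upstream kinases and factors (38.9%) begins just above it.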

How the data were processed

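Chromatin of outflow tract SMCs expressing FLAG-tagged PRDM6 was sequenced as 2 PRDM6 ChIP and 2 Input samples. The authors aligned paired reads to mm10 with BWA, called peaks in each replicate against its own input with MACS2 (p-value limit 0.001), matched the replicates by IDR and annotated the matched peaks. Versions are not given in the sources used here. The deposited −log10 p-values and scaled IDR score were used as they stand. Signal and q-value columns of the peak list held only placeholders, so −log10 p replaced signal. The q-value column of the annotation held the −log10 p-values of the second-listed replicate. Which sample is first-listed is not stated, and read totals were not used here.

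Members were matched by symbol in the annotation. Gene models were GENCODE release M21, sequence came from the GRCm38.p6 reference, and promoters from RefSeq. Fosl1 has no entry in the promoter table used. Heights in fragments were read from p-values within 0.0002 of the tails of 1 Poisson distribution per replicate, which 58.3% and 63.5% of the values met. This search and the motif search were tested on simulated data. Python 3.11.15, pandas 2.3.3, SciPy 1.17.1 and pysam 0.24.0 were used. All members, and at most the 4 genes with the most peaks of each further list (ties by symbol), are named by rule, and the few others named were chosen after their values were seen. Members and lists were chosen with earlier results of these data known. Alternatives were IDR limits, assignment rules, motif windows and each replicate alone. Some items are not reported here.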

Additional observations from a re-analysis of the deposited data

How the results depend on the processing

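The results were recomputed under alternatives, which gave 42 values. An IDR limit of 0.05 or of 0.01 left 1 gene (Atf3) with 1 peak, a promoter share of 100% for that peak, an AP-1 share of 0% and a median of 14.3, by construction from fewer peaks. Counting all peaks within 50 kb gave 5 genes with a peak, adding Fosl1 and Maff. Assignment to the nearest protein-coding start site gave 16 peaks, adding 6 annotated to Babam2 to those of Fosl2. The promoter share was 50% under that assignment (all peaks 21.3%) and 40% when the summit had to lie within 1 kb of a start site (all peaks 12.9%). With FOS and JUN genes only, the median was 6.61 and 0 peaks passed an IDR of 0.05. The AP-1 share was 30% within 250 bp of the summit, 40% over the whole peak and 0% around the summits of the first-listed replicate. Around those of the second-listed replicate it was 10%, from an Atf3 peak in place of the Fosl2 peak. The replicates taken alone, leaving out the other, gave medians from 6.66 to 7.01, higher than the matched 6.01 because a matched value is the smaller of the pair. No paired analysis was possible because no result came from a test between groups. The matching of replicates limits the list to peaks called in both.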
